A study of Mus musculus with 2 samples.

Results

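Small nucleolar RNAs (snoRNAs) and small Cajal-body RNAs (scaRNAs) that gave measurable counts were examined in total RNA from the hippocampus of young mice. The annotation used for the deposited tables types 1558 genes as snoRNA or scaRNA, and 61 of them had an expected count of 10 or more in both libraries. These 61 genes were selected on their measured counts, so that their being detected is a description and carries no test. Of the 61, 51 are typed snoRNA and 10 scaRNA, and 32 carry only a provisional Gm symbol.

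The study held 1 group of 2 libraries, replicate 1 and replicate 2, with no treatment, mutant or other tissue to set against it. Each library was made from the hippocampi of a pool of 3 female B6CASTF1/J mice, a first-generation hybrid strain, at 10 days of age, from 300 ng of total RNA reduced in ribosomal RNA and with ERCC spike-ins added. The pools held different animals, and single animals within a pool cannot be told apart. The libraries held 29756524 counts in replicate 1 and 32148302 in replicate 2 over annotated genes.

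SnoRNAs are short stable RNAs that guide enzymes to ribosomal RNA in the nucleolus, and most are cut out of the introns of other genes. Box C/D snoRNAs guide ribose methylation, box H/ACA snoRNAs guide the conversion of uridine to pseudouridine, and a few, such as U3, are instead needed to cut the ribosomal RNA precursor. ScaRNAs are built in the same ways but reside in Cajal bodies, where they guide modification of the small nuclear RNAs of the spliceosome. In neurons, large clusters of box C/D snoRNAs are made from imprinted loci that are expressed from a single parental allele.

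Counts differed with the annotated length, and the shortest RNAs could not be counted. The effective length in the tables, the number of places at which a 100-base window fits in a transcript, was the annotated length less 99 bases, and it was listed at 0 for shorter RNAs. All 462 annotated genes under 100 bases were listed at 0 counts in both libraries. A further 930 genes of 100 or more bases also had 0 counts in both, and low expression and short length were not separated among them. Among longer genes, 0 of 130 genes of 100 to 119 bases, 23 of 830 of 120 to 139 bases, 17 of 97 of 140 to 199 bases and 21 of 39 of 200 bases or more reached the count minimum. The shortest member was Snora26 at 121 bases and the longest Scarna2 at 414 bases. Most box C/D snoRNAs therefore have no measurement here: 87 of the 98 genes with a Snord symbol are under 100 bases, against 0 of the 42 genes with a Snora symbol.

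The imprinted clusters fall wholly in the range that was not counted. The interval from Snrpn to Ube3a (chr7:59228750-60140219, mm10), which carries the snoRNA cluster lost in Prader-Willi syndrome, holds 210 annotated snoRNA genes of 67 to 94 bases. Among them, 17 carry a Snord116 symbol, each of 94 bases. Any copies that carry only a Gm symbol are not in that number. The interval from Meg3 to Mirg (chr12:109541001-109749460) holds 23 genes of 68 to 82 bases. All 233 were listed at 0, while the long RNAs of these loci were abundant: Snhg14 stood at 712 TPM in replicate 1 and 581 TPM in replicate 2, Rian at 861 and 714 TPM, and Meg3 at 1638 and 1258 TPM. TPM expresses a transcript's level as its share of all transcripts, corrected for effective length. Nothing can be said here of the level of the small RNAs themselves.

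**Figure D1:**
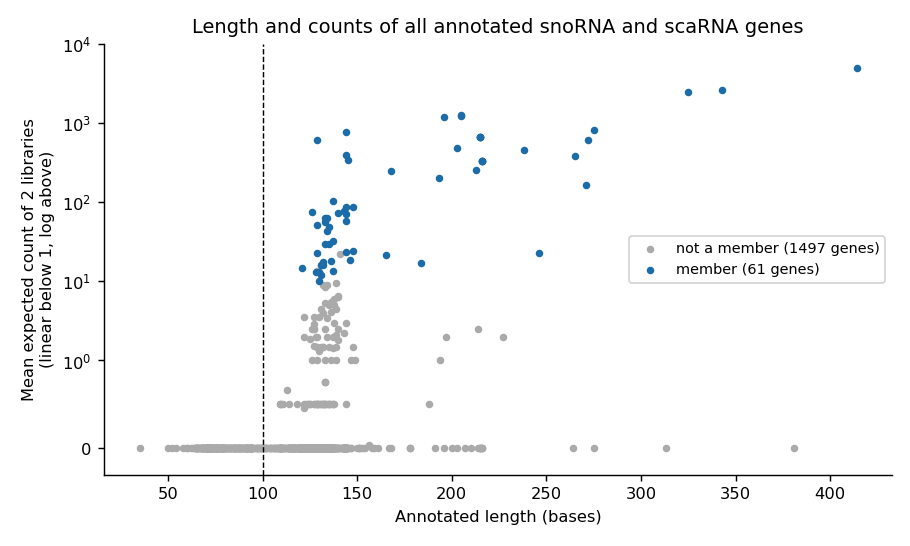
Each point is 1 of the 1558 annotated snoRNA and scaRNA genes, with its annotated length in bases across and its mean expected count over the 2 libraries up (linear below 1, logarithmic above). The dashed line marks 100 bases: all 462 genes to its left sit at 0, and the 61 members (blue) run between 121 and 414 bases.

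The sequences that carry the results follow, from the GENCODE M21 transcripts of mm10, written 5′ to 3′ with T for U. U3 is shown because its copies could not be counted apart. Rnu3b1 (chr11:87443237-87443451, plus strand) is 1 of 4 identical 215-base copies in tandem, and Rnu3a (chr10:40258467-40258679, plus strand) is the separate gene, which is 85.6% identical to it. Capitals mark a TGATGA run and the CTGA of box D near the 3′ end.
Rnu3b1: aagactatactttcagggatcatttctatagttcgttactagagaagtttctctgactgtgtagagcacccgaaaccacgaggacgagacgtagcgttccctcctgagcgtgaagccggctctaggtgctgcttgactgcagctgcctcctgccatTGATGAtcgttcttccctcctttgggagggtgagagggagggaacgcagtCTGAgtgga
Rnu3a: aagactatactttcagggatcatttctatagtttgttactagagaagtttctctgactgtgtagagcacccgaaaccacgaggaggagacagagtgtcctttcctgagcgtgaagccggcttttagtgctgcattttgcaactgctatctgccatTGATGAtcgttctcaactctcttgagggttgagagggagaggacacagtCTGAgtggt

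Snora73a (chr4:132352775-132352979, minus strand) and Snora73b (chr4:132352322-132352526, minus strand) are shown because they are nearly identical neighbours, at 96.6% identity, and Gm26448 (chr9:120129351-120129553, plus strand) is 88.3% identical to Snora73a in a different host. Capitals mark the ACA box 3 bases from the 3′ end.
Snora73a: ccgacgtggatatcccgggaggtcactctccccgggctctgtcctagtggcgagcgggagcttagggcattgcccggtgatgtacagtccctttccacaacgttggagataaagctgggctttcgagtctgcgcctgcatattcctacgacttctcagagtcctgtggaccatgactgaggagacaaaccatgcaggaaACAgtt
Snora73b: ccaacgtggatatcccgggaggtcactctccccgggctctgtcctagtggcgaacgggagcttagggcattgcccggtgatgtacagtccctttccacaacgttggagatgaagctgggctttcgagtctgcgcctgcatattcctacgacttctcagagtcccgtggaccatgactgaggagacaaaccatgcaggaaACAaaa
Gm26448: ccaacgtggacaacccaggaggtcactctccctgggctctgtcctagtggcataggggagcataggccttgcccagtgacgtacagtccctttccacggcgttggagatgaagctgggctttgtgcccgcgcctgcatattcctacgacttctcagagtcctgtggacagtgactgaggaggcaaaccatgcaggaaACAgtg

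Snord15a (chr7:99482785-99482932, minus strand) and Snord15b (chr7:99479563-99479707, minus strand) are neighbours in 1 host gene that differed in level, and Gm22486 (chr6:71882557-71882693, minus strand) has the same ends as RefSeq Snord94. Capitals mark the TGATGA core of box C and the CTGA of box D.
Snord15a: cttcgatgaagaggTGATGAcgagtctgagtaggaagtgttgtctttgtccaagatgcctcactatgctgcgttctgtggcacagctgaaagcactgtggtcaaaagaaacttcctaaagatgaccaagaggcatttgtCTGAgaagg
Snord15b: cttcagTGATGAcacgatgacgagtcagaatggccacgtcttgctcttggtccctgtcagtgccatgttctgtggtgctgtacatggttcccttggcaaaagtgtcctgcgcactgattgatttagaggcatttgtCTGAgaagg
Gm22486: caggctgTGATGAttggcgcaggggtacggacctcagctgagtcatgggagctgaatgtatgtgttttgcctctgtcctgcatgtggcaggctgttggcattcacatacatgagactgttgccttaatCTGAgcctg

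Gm26447 (chr16:23111301-23111429, plus strand) had the highest TPM of any single member entry, below the sum of the Rnu3b entries. Capitals mark its ACA box.
Gm26447: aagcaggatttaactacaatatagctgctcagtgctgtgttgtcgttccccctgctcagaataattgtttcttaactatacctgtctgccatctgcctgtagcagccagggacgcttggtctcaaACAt

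Gm22988 (chr11:69669635-69669778, minus strand), Gm25291 (chr11:51737779-51737922, minus strand), Gm25117 (chr10:111481493-111481636, plus strand) and Gm24727 (chr8:33691801-33691944, plus strand) are 4 related RNAs of 144 bases in 4 host genes, and they include the member that differed most between the libraries. Capitals mark the bases that differ from Gm22988, which number 4, 13 and 9 in the other members in that order.
Gm22988: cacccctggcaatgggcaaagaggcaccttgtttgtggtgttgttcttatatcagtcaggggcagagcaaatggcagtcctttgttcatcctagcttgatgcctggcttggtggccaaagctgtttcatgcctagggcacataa
Gm25291: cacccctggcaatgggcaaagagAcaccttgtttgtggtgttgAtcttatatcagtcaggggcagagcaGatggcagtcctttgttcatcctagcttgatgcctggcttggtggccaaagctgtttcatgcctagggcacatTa
Gm25117: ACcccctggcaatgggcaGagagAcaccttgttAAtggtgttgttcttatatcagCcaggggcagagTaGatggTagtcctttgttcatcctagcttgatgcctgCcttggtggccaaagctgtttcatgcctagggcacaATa
Gm24727: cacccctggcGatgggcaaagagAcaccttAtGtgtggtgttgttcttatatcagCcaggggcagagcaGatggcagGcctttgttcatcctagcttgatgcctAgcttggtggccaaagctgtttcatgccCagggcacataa

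Scarna13 (chr12:105031075-105031349, minus strand) contains both mature arms of miR-3069 as RefSeq places them, and capitals mark the 5p and 3p arms. Its counts do not tell the whole RNA from pieces of it.
Scarna13: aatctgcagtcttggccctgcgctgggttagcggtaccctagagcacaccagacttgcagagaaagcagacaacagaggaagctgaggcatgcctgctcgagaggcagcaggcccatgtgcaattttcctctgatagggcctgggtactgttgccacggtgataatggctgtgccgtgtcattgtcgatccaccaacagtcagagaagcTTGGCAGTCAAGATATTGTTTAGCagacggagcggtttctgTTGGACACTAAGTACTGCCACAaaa

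Together the members made up 1.08% of all TPM in replicate 1 and 0.995% in replicate 2 (1.04 ± 0.0614%, SD, n = 2). Of the counts assigned to annotated genes they took 0.0815% and 0.0798%, with 24255 and 25642 counts. The gap between these scales comes from the effective lengths: Gm26447, of 129 bases, has an effective length of 30 bases, so that 666 counts made 1075 TPM in replicate 1, whereas the 4842 counts of Scarna2 made 744 TPM over an effective length of 315 bases. By counts per annotated length Scarna2 ranked first among single entries and Gm26447 ranked 8. The 10 members with the most counts held 68.4% of the members' counts in replicate 1 and 66.4% in replicate 2. Members spanned 6.26 to 1075 TPM with a median of 85.9 TPM in replicate 1, and 7.78 to 819 TPM with a median of 77.4 TPM in replicate 2.

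**Figure D2:**
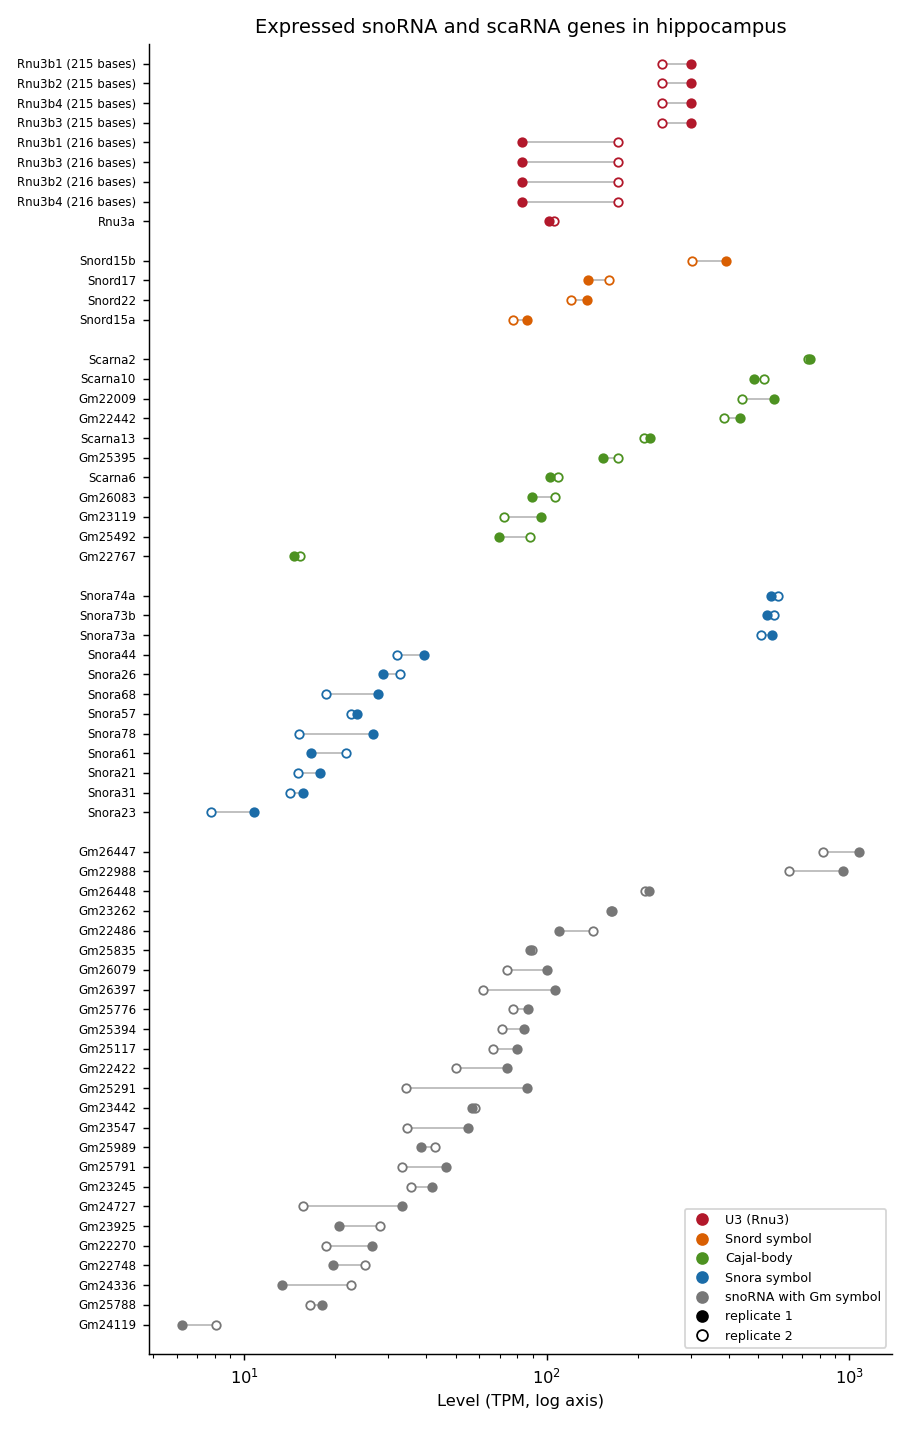
Each row is a member, with its level in TPM (log axis) in replicate 1 (filled) and replicate 2 (open), grouped by class. The 3 leading Snora genes lie between 510.3 and 583 TPM and the other 9 have means of 9.3 to 35.6 TPM, while the 4 Rnu3b entries of 216 bases show the same wide gap because they are identical copies.

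Of the RNAs that act in cutting the ribosomal precursor, the summed Rnu3b entries and the Snora73 genes stood at 510.3 TPM or more in both libraries, Rnu3a and Snord22 stood lower, and Snord118, Snord13 and Snord14 were not members. U3, which pairs with the precursor of the small-subunit RNA, was annotated as 8 Rnu3b entries at 4 loci on chromosome 11 and 1 Rnu3a gene on chromosome 10. The 4 entries of 215 bases were each given 719.5 counts in replicate 1 and 632 in replicate 2, and the 4 entries of 216 bases, which add 1 base at the same loci, 201 and 457 counts. Reads cannot be told apart between them, and the posterior SD of these counts, the spread in reads over draws of the assignment, ran from 95.8 to 508 reads. Only the sum over the 8 entries can be read, and it was 3681 counts (1533 TPM) in replicate 1 and 4358 counts (1651 TPM) in replicate 2. Rnu3a had 239 and 273 counts, or 101 and 106 TPM. The summed Rnu3b level was thus far above that of Rnu3a in both libraries, although reads from stretches the genes share can go to either: the posterior SD of Rnu3a was 52.2 and 74.6 reads.

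Snora73a and Snora73b, the mouse forms of U17, which also acts in processing of the small-subunit RNA, stood at similar levels. Snora73a had 1218 counts (556 TPM) in replicate 1 and 1226 counts (510.3 TPM) in replicate 2. Snora73b had 1171 counts (535 TPM) and 1358 counts (565 TPM). The order of the 2 RNAs changed between the libraries, so that their levels did not differ beyond the spread. Gm26448, the relative in an intron of the ribosomal protein gene Rpsa, had 219 and 211 TPM, below both Snora73 genes in each library. Snord22 (U22), needed for small-subunit RNA processing in Xenopus, had 136 and 120.5 TPM. Snord118 (U8), which acts on the large-subunit precursor, stayed below the minimum with 6 and 4 counts at 135 bases. Snord13 (U13), of 104 bases, had 0 counts in both libraries, which allows up to 3 counts in each, over an effective length of 5 bases. All 4 annotated Snord14 genes are under 100 bases.

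Only 4 genes with a Snord symbol were members: Snord22, described above, and the guides Snord15a, Snord15b and Snord17. Box C and D sequences, given further on, were also present in 3 snoRNA members with Gm symbols and 4 Cajal-body members. Snord15a and Snord15b, which guide methylation of the large-subunit RNA, lie in different introns of Rps3 and are 65.6% identical over 154 aligned positions. Snord15b had 393 TPM in replicate 1 and 302 TPM in replicate 2, and Snord15a 85.9 and 77.4 TPM. Snord15b was the higher in both libraries, by far more than either RNA differed between them. An annotated retained-intron transcript of Rps3 also holds the whole of Snord15b, and none holds Snord15a. Snord17, another guide for the large-subunit RNA, had 138 and 161 TPM, between the Snord15 genes in both libraries. Gm22486, which has the ends of RefSeq Snord94, a guide for U6, had 110 and 143 TPM.

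Among single entries, Cajal-body RNAs gave the largest counts, although the summed Rnu3b entries stood above all of them but Scarna2. Scarna2, which guides methylation of U2 small nuclear RNA, had 4842 counts (744 TPM) in replicate 1 and 5233 counts (733 TPM) in replicate 2 and lies in no annotated host gene. Gm22009, in an intron of Kpna4, had 566 and 443 TPM. Scarna10 (U85), which carries both box types and guides modification of U5, had 485 and 525 TPM. Gm22442, in Chd3, followed with 437 and 386 TPM, Scarna13 (U93) with 219 and 211 TPM, and Gm25395 with 154 and 172 TPM. Gm25395 and Scarna6 (U88) share the host Atg16l1, and Scarna6 had 103 and 109 TPM, below Gm25395 in each library. The 11 Cajal-body members, which include Scarna10 although it is typed snoRNA, held 27.5% of the members' TPM in replicate 1 and 28.7% in replicate 2. The lowest was Gm22767, with a mean of 15.0 TPM.

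The 12 members with a Snora symbol held 3 abundant genes and 9 at low levels. Other members with an ACA end carry Gm symbols and are described further on. Snora74a (U19), which guides a pseudouridine in the large-subunit RNA, had 553 TPM in replicate 1 and 583 TPM in replicate 2. With Snora73a and Snora73b it took 95.9% and 96.5% of the counts of all 12 Snora members. The other 9 summed to 149 and 140 counts, and their mean levels ran from 9.3 TPM for Snora23 to 35.6 TPM for Snora44. At such counts neighbours in the order cannot be separated: Snora31 had 10 and 10 counts, Snora78 16 and 10, and Snora61 10.7 and 15.3, and these 3 lay just inside the minimum. Just outside it were Gm22154 with 23 and 9 counts, Gm25107 with 18 and 9, and Snora17 with 9 and 9.

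The median level of the 12 Snora members was 23.1 TPM and that of the 4 Snord members 139 TPM, a log2 difference of -2.58. Among the members with 100 or more counts in both libraries the order turned round, to 1.15. The medians therefore describe the genes that could be counted and not the classes as a whole.

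The 25 snoRNA members with Gm symbols were led by Gm26447, in an intron of the translation factor gene Eif4a2, with 1075 TPM in replicate 1 and 819 TPM in replicate 2. Gm22988, in Eif4a1, had 956 and 633 TPM. In replicate 1 no other single entry had a higher level, and in replicate 2 Scarna2 stood between them. In Eif4a1 a further member, Gm25835, had 88.2 and 89.2 TPM, so that members of 1 host stood far apart in both libraries. The relatives of Gm22988 in other genes were all far lower: Gm25117 in Nap1l1 had 79.6 and 66.7 TPM, Gm25291 in Sec24a 86.1 and 34.3 TPM, and Gm24727 in Gsr 33.3 and 15.7 TPM. Exons of annotated retained-intron transcripts of the hosts overlap Gm26447 and Gm22988, and none overlaps Gm25835 or these relatives. The part of such transcripts in the levels was not tested. The lowest of the 61 was Gm24119, in Slc25a3, with 6.26 and 8.10 TPM.

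Nearly all members lay inside another gene on the same strand. This held for 57 of 61 (93.4%), against 257 of the 1035 annotated genes of 100 bases or more that were not members (24.8%). The difference is a description, since the members were chosen by their counts, and the part of unspliced host RNA in a member's count was not tested. The exceptions were Scarna2, Gm23119, Rnu3a and Snora57, which lies opposite a gene on the other strand. The 8 Rnu3b entries lie within Tex14 (0.21 and 0.29 TPM). Leaving out the U3 entries, 49 members had 44 hosts, and 5 hosts held a pair: Eif4a1, Rps3, Snhg3, Atg16l1 and Snhg12. For 40 of the 49 a protein-coding gene was a host, and for 9 a non-coding gene alone. Of the 49, 31 lay in introns of every annotated host transcript, and 18 overlapped an exon of some host transcript, mostly of the retained-intron type. The whole sequence of 13 members other than Rnu3b also occurs in a further annotated transcript, so that their reads had to be shared out. Outside U3, 19 members had a posterior SD above 0, and it came to at most 30.8% of the count with a median of 1.49%, while 33 members had a posterior SD of 0 in both libraries.

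Among the members, level showed little relation to that of the host. Across the 49 members Spearman's rho between the mean TPM of member and host was 0.030. The points share libraries and, in 5 pairs, a host. Genes with few counts are left out by the selection, among them 27 in hosts of 100 TPM or more. The rho therefore describes the genes that could be counted and not snoRNA genes as a whole. Scarna10, at 485 and 525 TPM, lies in the condensin gene Ncapd2 at 13.9 and 15.1 TPM. Snora73a and Snora73b lie in Snhg3 at 12.1 and 11.0 TPM. Snora31, at 15.6 and 14.2 TPM, lies in Tpt1 at 496 and 439 TPM, and Gm24119 in the mitochondrial phosphate carrier gene Slc25a3 at 238 and 252 TPM. Of the 49 members, 30 had a higher TPM than their host. The count minimum bears on this number, since the 10 counts of Snora31 already made 15.6 TPM in replicate 1. Host levels ran from 4.46 TPM (Trmt10c, host of Gm22422) to 468 TPM (Tpt1), with a median over members of 29.9 TPM, against 16.3 TPM for hosts of the genes that were not members.

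**Figure D3:**
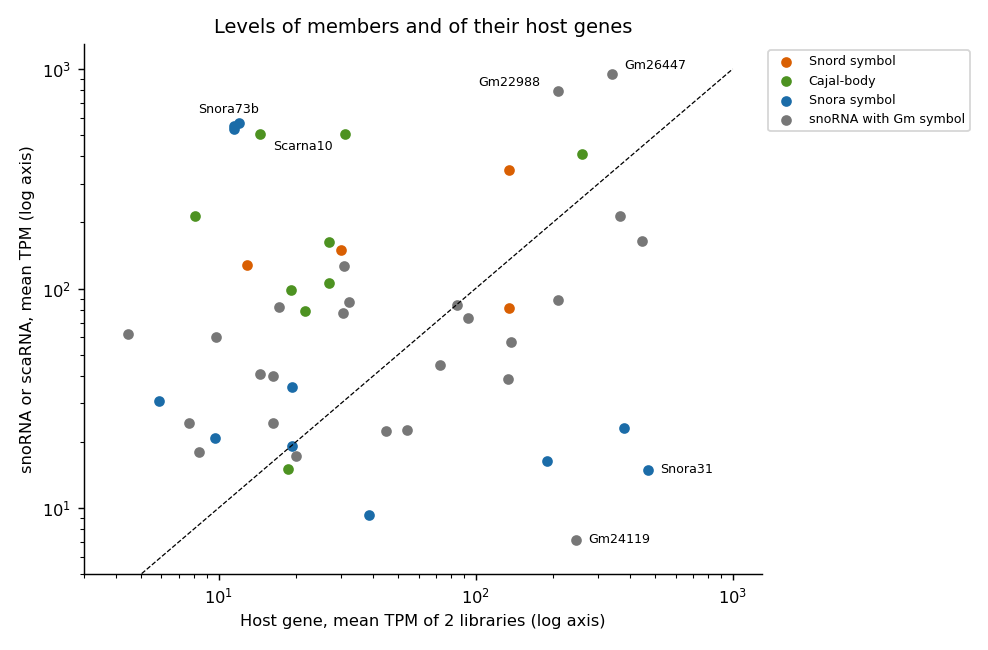
Each point is 1 of the 49 members with a host gene, U3 left out, with the host's mean TPM across and the member's mean TPM up (both log axes) and equality dashed. Scarna10 and the Snora73 genes lie far above their hosts of 11 to 15 TPM, and Snora31 and Gm24119 far below hosts of 468 and 245 TPM.

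Box sequences, which the selection did not use, differed between members with Snora and Snord symbols. These symbols themselves name the box class, so that the difference is no independent result. A TGATGA within the first 30 bases together with a CTGA within the last 20, read on the RNA's own strand, was present in 10 of 61 members (16.4%), in 9 of 1035 other annotated genes of 100 or more bases (0.870%) and in 64.5% of the 462 genes under 100 bases. It was also present in 0.0517% of 32851 RefSeq promoter windows of 144 bases (GRCm38.p6), the members' median length. An ACA within the last 8 bases was present in 37 of 61 members (60.7%), in 63.2% of the other genes of 100 or more bases, and in 8.72% of promoter windows. Of the 12 Snora members 11 had the ACA and 0 the C and D runs, whereas of the 4 Snord members 3 had both runs and 0 the ACA. The 9 U3 entries had CTGA near the end and no TGATGA within the first 30 bases. Of the 25 snoRNA members with Gm symbols 21 had the ACA and 3 the C and D runs, and Gm23547 had all of these. The pattern ANANNA for box H was found in all 61 members and in 79.6% of promoter windows, so that it told nothing apart. A match is a run of letters and not a shown site.

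The 2 libraries were compared as log2 ratios of scaled counts, replicate 1 over replicate 2, with 95% Clopper-Pearson counting intervals. There is no test between them, since each is 1 library. The median ratio of the members was 0.033, with 32 members higher and 29 lower in replicate 1, against -0.0020 over all 18049 genes with 10 or more counts in both libraries. The ratio reached 2-fold in 5 members (8.20%), against 2.39% of all genes, of which 1 was higher in replicate 1 (1.98% of all genes) and 4 were lower (0.41% of all genes). The 4 lower were the Rnu3b entries of 216 bases, at -1.15 each, and the entries of 215 bases at the same loci stood at 0.22. Summed over the 8 entries the ratio was -0.21 (interval -0.27 to -0.15), and the sum thus stayed far below 2-fold. Without Rnu3b, 1 of 53 members reached 2-fold. Scaled by ERCC totals instead, 2 of 61 members reached 2-fold, against 5.28% of all genes.

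That member was Gm25291, with 80 counts in replicate 1 and 35 in replicate 2, a log2 ratio of 1.21 (interval 0.64 to 1.84). Its relative Gm24727 had 31 and 16 counts and a ratio of 0.97 (0.07 to 1.96). The others of that family were closer, with Gm22988 at 0.49 (0.35 to 0.64) and Gm25117 at 0.15 (-0.34 to 0.65). Among members with 100 or more counts in both libraries, other than Rnu3b, the highest ratios were 0.57 for Gm23547 and 0.49 for Gm22988, followed by 0.29 for Gm26447, 0.28 for Snord15b and 0.25 for Gm22009. The lowest were -0.35 for Gm26083 and -0.33 for Snord17, followed by -0.25 for Gm25395, -0.21 for Scarna10 and -0.19 for Scarna6. The interval left out equal levels in 24 members (39.3%), 12 in each direction, against 38% of all genes, which is close to that background. The 24 include all 8 Rnu3b entries, those of 215 bases higher and those of 216 bases lower in replicate 1. Only the sum of these entries can be read, so the share and the even split depend on how their reads were assigned.

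The SD of the members' ratios was 0.47, and 0.39 without Rnu3b, against 0.29 over the 13533 protein-coding genes in the members' range of counts. Counts were not matched within that range. Of the 61 members 27 had 100 or more counts in both libraries, against 10839 of the 13533 protein-coding genes. At 100 or more counts it was 0.27 over 19 members without Rnu3b, against 0.21 over 10839 protein-coding genes. The pools differed in oligodendrocyte markers: Mbp, Mobp and Mog summed to 89.4 TPM in replicate 1 and 301 TPM in replicate 2, with ratios of -2.33 to -1.59, while the other 23 markers of neurons, glia, vessels, blood and neighbouring regions had ratios of -0.77 to 0.64. All 26 markers were at 1 TPM or more in both libraries. The part of this in the members' ratios was not tested, and in such bulk RNA fewer cells of a type and less RNA per cell cannot be told apart. Hippocampal genes were present in both, Prox1 of the dentate gyrus at 39.9 and 44.9 TPM and Wfs1 of CA fields at 40.2 and 37.4 TPM.

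**Figure D4:**
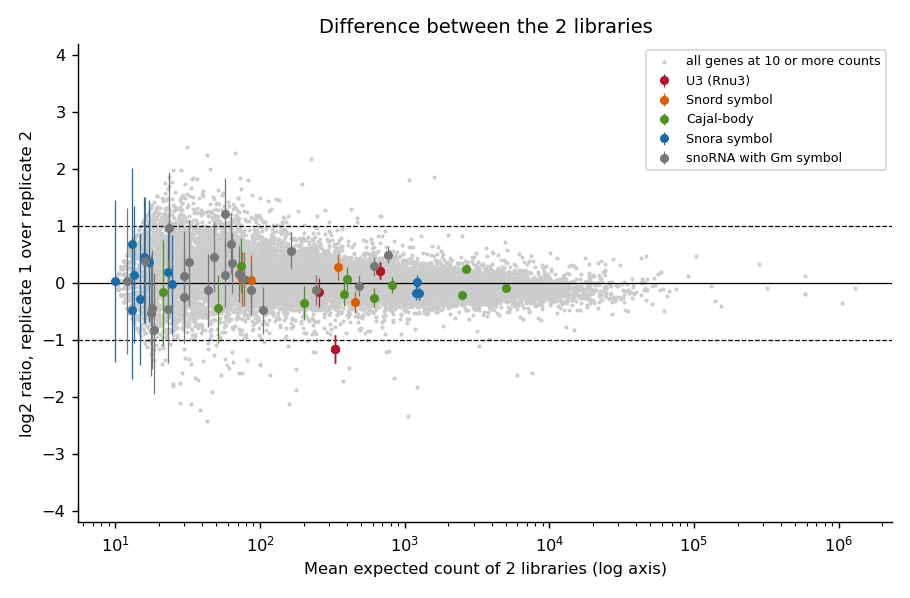
The log2 ratio of replicate 1 over replicate 2 (up) is drawn against the mean expected count (log axis) for the members, with 95% counting intervals, and for all 18049 genes at 10 or more counts (grey). Dashed lines mark 2-fold: the 4 Rnu3b entries of 216 bases, drawn on top of each other at -1.15, and Gm25291 at 1.21 lie beyond them.

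The messenger RNAs of the proteins that package these RNAs were all detected. Of the box C/D core, Nop56 stood at 81.9 and 73.8 TPM, Snu13 at 42.7 and 46.4, Nop58 at 36.2 and 28.7, and the methyltransferase Fbl at 30.3 and 25.2 TPM. Of the box H/ACA core, Nhp2 had 24.9 and 25.0 TPM, Nop10 27.1 and 21.5, Gar1 23.1 and 22.4, and the pseudouridine synthase Dkc1 11.4 and 8.83 TPM. The box C/D core had a median of 38.5 TPM and the box H/ACA core one of 23.5 TPM, against 9.28 TPM over all 18049 genes. Assembly factors were lower, with a median of 13.4 TPM over 9 genes, from Pih1d1 at 27.6 and 21.2 TPM to Shq1 at 3.21 and 2.77 TPM. Of the Cajal-body genes, Coil, the marker protein of the body, had 8.86 and 7.49 TPM and Wrap53, which brings scaRNAs to it, 3.36 and 4.27 TPM, whereas the nucleolar genes Npm1 (108 and 95.7 TPM) and Ncl (91.0 and 82.1 TPM) were the highest listed. The debranching enzyme Dbr1, which opens the intron lariats that most snoRNAs come from, had 5.69 and 5.80 TPM, and the exosome nuclease Exosc10, which trims them, 25.5 and 23.2 TPM. Of these 32 partner genes 0 reached 2-fold between the libraries. The share was 2.39% of all 18049 genes, too low for 0 of 32 to set the partner genes apart. Their ratios ran from -0.32 to 0.24 with a median of 0.020.

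**Figure D5:**
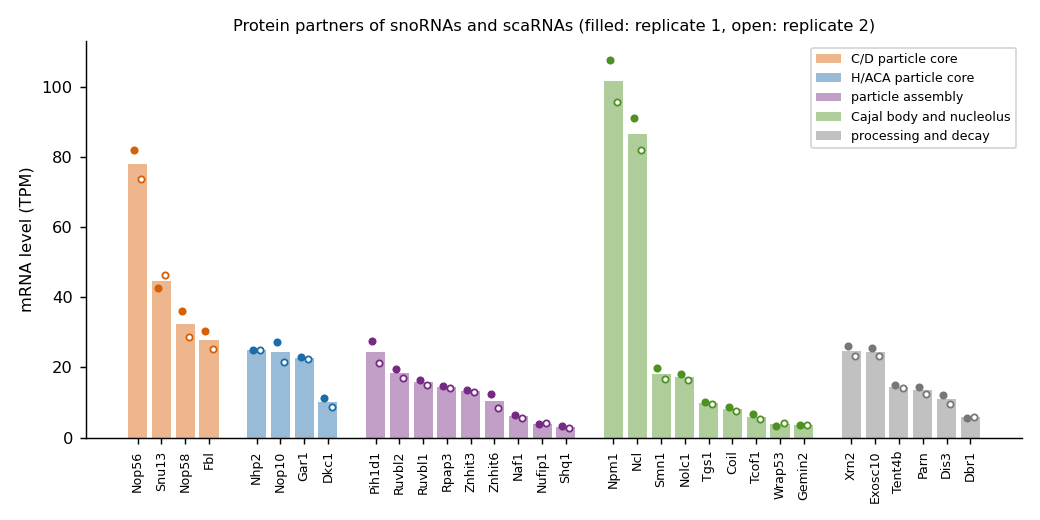
Bars give the mean level in TPM of 32 genes for proteins that bind, assemble, house or process snoRNAs and scaRNAs, with replicate 1 filled and replicate 2 open. Npm1 and Ncl are the highest at about 102 and 86.5 TPM, and the box C/D core genes stand above the box H/ACA core genes.

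Other small nuclear RNAs, of 271 to 423 bases against a median of 144 bases for the members, gave a measure of scale. Rn7sk, the inhibitor RNA of transcription elongation, had 64020 and 63750 TPM, and Rpph1, the RNA of RNase P, 8758 and 9393 TPM. Rmrp, the RNA of RNase MRP, is annotated by 2 overlapping genes at 4332 and 3861 TPM and at 4589 and 3841 TPM, whose reads cannot be told apart. All of these were above every member. Telomerase RNA (Terc), which shares the box H/ACA fold, had 5.38 and 4.36 TPM, below the TPM of every member in both libraries. Over its 423 bases this came from 36 and 32 counts, more than in low members such as Snora31, with 10 and 10 counts. Of the non-coding host genes listed, 18 were matched and 0 reached 2-fold, against 2.39% of all genes. Their median ratio was 0.27, against -0.0020 over all genes. They included Gas5 at 99.3 and 78.9 TPM, whose snoRNAs are not among the members.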

How the data were processed

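Total RNA-seq of 2 hippocampal libraries was used. Per the file headers and labels, the authors aligned reads to mm10 with annotation M21 and deposited, for each library, expected counts, TPM and FPKM per gene, estimated counts per transcript, and a posterior SD of each count. The sources used here name no aligner. The mice are hybrids, and whether reads of the allele that differs from the mm10 sequence were counted less often in any member was not tested. Genes typed snoRNA or scaRNA with an expected count of at least 10 in both gene tables were taken; from the transcript tables only the types were read. The members and the lists were chosen with earlier results of these data known. Named genes were those with the highest mean TPM per class, the precursor-cutting families, the 5 largest ratios in each direction at 100 or more counts, and 3 genes on each side of the minimum.

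Ratios are replicate 1 over replicate 2, with 0.5 added to each count after TMM scaling (edgeR 4.0.16) on all annotated genes, and 2-fold is the call. No p-value was computed, since each side is 1 library. Intervals cover counting error only, as if reads were independent molecules, and leave out variation between animals and between library preparations. ERCC spike-ins took 0.341% of counts in replicate 1 and 0.393% in replicate 2. Alternatives used DESeq2 1.42.0 size factors, total counts and ERCC totals. The ratio step was tested on simulated data. Hosts are annotated genes that enclose a member on its strand. The planned background of genomic windows was not used here; promoter windows took its place. Python 3.11.15 and Biopython 1.88 were used. Of the listed genes, Nopchap1, Snhg4 and Snhg7 were not matched by symbol, and Papd5 is an older name of Tent4b. A further listed marker is not reported here.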

Additional observations from a re-analysis of the deposited data

How the results depend on the processing

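The number of members was 68 and 47 at count minimums of 5 and 20, 27 at 100, and 62 to 66 when a single library set it. The members' share of TPM (1.04%) was 0.593% by counts per annotated length and 0.0806% by expected counts, and 0.995% to 1.08% when either library was left out. The log2 difference of the Snora and Snord medians (-2.58) was -3.35 by counts per annotated length, -3.71 by expected counts, -1.61 with members classed by box sequences, a choice made after seeing the data, and -2.67 to -2.33 without either library. At 100 or more counts in both libraries it reversed to 1.15. The Snora genes left there were Snora73a, Snora73b and Snora74a, and the Snord genes left were Snord15b and Snord17. The median ratio of the members (0.033) was 0 with DESeq2 size factors, which were 1 for both libraries and so left the counts unscaled. By total counts it was 0.11, with no count minimum 0.070, at 100 or more counts -0.079 and from TPM 0.13. It was 0.32 by ERCC totals, where the median of all genes moved by 0.28 and 2 of 61 members reached 2-fold, against 5.28% of all genes, where the main scaling gave 5 members (8.20%) against 2.39% of all genes, so that the order of the shares turned round. At 1.5-fold 9 members passed (all genes 9.83%), and 1 passed at 2-fold with the Rnu3b entries summed, a choice made after seeing the data. The SD of the ratios (0.47) was 0.44 with a pseudocount of 5 and 0.39 with Rnu3b summed. The number with a host was 58 on either strand and 48 for protein-coding hosts. Of 112 values of 28 named members under alternatives, 39 moved, and all 28 levels were lower by counts per annotated length. A reversal was looked for only in ratios that reached 2-fold, and 0 were found. Under ERCC totals some smaller ratios changed sign, such as Snora74a from -0.175 to 0.108 and Scarna10 from -0.213 to 0.070. Apart from effective length, causes of these changes were not tested. No paired analysis was possible because there is 1 group. Counts near the minimum and the absence of counts under 100 bases limit all statements on low and short RNAs.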
